A study of Mus musculus with 2 samples.

Results

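The mast cell genes described here are 9 genes that mark mast cells or serve their granules and IgE receptor, namely *Cma1*, *Mcpt4*, *Tpsb2*, *Tpsab1*, *Cpa3*, *Ms4a2*, *Fcer1a*, *Hdc* and *Gata2*. They were taken by name from the gene names of the array design, among 30133 genes with a probe. The 9 genes have 10 probes with 1 spot each, 2 of them for *Tpsb2*. The study hybridized skin RNA of C57BL/6N pups, collected on postnatal day 0, to 1-colour Agilent arrays, 1 for *Pnpla1*+/+ and 1 for *Pnpla1*-/- skin. Each array received equal amounts of RNA from 6 animals. The study's methods describe the *Pnpla1*-/- mice as homozygotes for the KOMP allele *Pnpla1*tm1a(KOMP)Wtsi, made in embryonic stem cells of C57BL/6N mice. Flippase had taken its reporter and selection cassettes (IRES-LacZ and Neo) out of the allele. According to the methods, control and knockout pups were littermates born to heterozygous parents. The gene was thus disrupted in the whole body and not in the skin alone. A single pool and array stood for each genotype, so that no test could be made and every difference below describes these 2 pools.

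Intensities are given as deposited, after background subtraction within the array. A difference is the log2 value of *Pnpla1*-/- skin minus that of *Pnpla1*+/+ skin, after each intensity was divided by the 75th percentile of its array, 2108 for *Pnpla1*+/+ and 1734 for *Pnpla1*-/- skin. A gene was counted as higher or lower when the scaled intensities differed at least 2-fold. The technical SD of a difference, as a median over 314 probes with at least 8 spots, was 0.08, and among the 45 of them with an intensity under 100 it was 0.23. This SD leaves out the variation between mice. The choice of scaling moves all genes measured on both arrays by the same amount, −0.28 with no scaling and −0.43 with centring on spike-in RNA, so that calls and signs close to a limit depend on it while gaps between genes do not. The probe of *Pnpla1* itself read 579 in the control and 114 in the knockout, a difference of −2.07, and this probe was still well above background in the knockout. The study reports that knockout skin lacked *Pnpla1* mRNA by quantitative PCR and the protein by immunohistochemistry. Whether the array probe lies in the disrupted part of the gene was not checked. Markers of sex were unequal in the 2 pools, with *Xist* at 1.12 and the Y-linked *Ddx3y* at −2.19, and their bearing on the values below was not tested.

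Mast cells settle in the dermis before birth and store ready-made mediators in their granules. The granules of connective tissue mast cells hold the chymases encoded by *Cma1* and *Mcpt4*, the tryptases encoded by *Tpsb2* and *Tpsab1*, and carboxypeptidase A3 (*Cpa3*), packed with histamine on the proteoglycan serglycin. Antigen that cross-links IgE on the high-affinity receptor, built from an alpha chain (*Fcer1a*), a beta chain (*Ms4a2*) and a shared gamma chain (*Fcer1g*), triggers their release. Basophils carry the same receptor, make histamine with the same enzyme (*Hdc*) and also depend on the transcription factor GATA2. Thus *Fcer1a*, *Ms4a2*, *Hdc* and *Gata2* do not tell mast cells from basophils.

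The probes of *Cma1*, *Tpsab1* and *Tpsb2* are shown because they read the protease with the largest difference, *Tpsab1*, a neighbouring tryptase and a chymase. Each 60-base probe leaves at least 1 reading frame without a stop codon.
*Cma1* probe: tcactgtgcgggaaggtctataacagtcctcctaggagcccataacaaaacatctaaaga
*Tpsab1* probe: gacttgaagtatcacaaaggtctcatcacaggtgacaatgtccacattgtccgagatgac
*Tpsb2* probe: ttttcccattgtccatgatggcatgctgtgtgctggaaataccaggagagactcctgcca
On mm9 the *Cma1* probe lies on the minus strand at chr14:56561491-56562550, a stretch of 1060 bases, so that its 60 bases are not contiguous in the genome. The *Tpsab1* probe lies on the minus strand at chr17:25480640-25480699. The *Tpsb2* probe shown lies on the plus strand at chr17:25504493-25504552, and its other, brighter probe at chr17:25504819-25504878. The remaining probes are on chromosome 14 (*Mcpt4*, start 56678589), 3 (*Cpa3*, start 20115674), 19 (*Ms4a2*, start 11691701), 1 (*Fcer1a*, start 175151438), 2 (*Hdc*, start 126419516) and 6 (*Gata2*, start 88156362).

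The start regions of 3 proteases that differed by similar amounts, *Cma1*, *Mcpt4* and *Cpa3*, are shown beside that of *Fcer1a*, which differed in the opposite direction. Each run is the 250 bases before the start of the gene, from RefSeq on GRCm38.p6, on the coding strand. Capitals mark the letters GATA, the core that GATA factors such as GATA2 bind, and its reverse complement.
*Cma1*, chr14:55944676-55944925, minus strand: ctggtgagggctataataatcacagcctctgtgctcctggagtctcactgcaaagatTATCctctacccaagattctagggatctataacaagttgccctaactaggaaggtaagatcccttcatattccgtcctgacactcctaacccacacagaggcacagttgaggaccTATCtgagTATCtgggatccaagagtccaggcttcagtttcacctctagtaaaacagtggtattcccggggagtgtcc
*Mcpt4*, chr14:56062311-56062560, minus strand: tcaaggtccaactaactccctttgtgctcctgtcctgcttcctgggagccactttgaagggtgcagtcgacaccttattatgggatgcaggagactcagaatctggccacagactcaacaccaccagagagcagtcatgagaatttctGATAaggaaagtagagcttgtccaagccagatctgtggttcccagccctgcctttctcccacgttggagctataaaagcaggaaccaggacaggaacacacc
*Cpa3*, chr3:20242182-20242431, minus strand: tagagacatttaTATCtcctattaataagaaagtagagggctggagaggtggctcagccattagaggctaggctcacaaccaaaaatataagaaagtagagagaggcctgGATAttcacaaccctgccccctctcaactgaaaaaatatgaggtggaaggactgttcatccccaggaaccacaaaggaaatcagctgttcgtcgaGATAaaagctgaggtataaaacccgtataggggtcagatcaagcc
*Fcer1a*, chr1:173227230-173227479, minus strand: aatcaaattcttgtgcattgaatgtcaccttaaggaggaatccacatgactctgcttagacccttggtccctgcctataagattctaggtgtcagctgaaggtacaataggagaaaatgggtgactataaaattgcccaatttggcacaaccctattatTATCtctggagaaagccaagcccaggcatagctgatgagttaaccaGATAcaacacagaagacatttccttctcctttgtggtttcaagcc
The letters occur 3 times in the *Cma1* window, 1 time in that of *Mcpt4*, 3 times in that of *Cpa3* and 2 times in that of *Fcer1a*. Of the 7 genes with a window, 6 held at least 1 match on either strand, overlapping matches counted, and both windows of *Gata2* held none. *Tpsb2* and *Tpsab1* were not among the windows. GATA was found in 53.6% of 32851 windows of the same length, and the E-box letters CANNTG in 66.2% of them and in 4 of the 7 genes. These matches describe letters only, and binding was not measured.

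All 9 genes were well above background on both arrays. Of these, 1 (*Tpsab1*) reached 2-fold on the lower side and 1 (*Fcer1a*) on the higher side in *Pnpla1*-/- skin, or 11.1% each, while 3.04% of all 22374 genes with a value were at least 2-fold lower and 6.70% at least 2-fold higher. With spike-in centring *Fcer1a* came under 2-fold and none of the 9 was at least 2-fold higher. The lower side then held 3 of the 9, as with no scaling, while 2178 and 1424 genes of the array were lower. It held 2 with quantile normalization and with cyclic loess, where 890 and 754 genes of the array were lower. A difference below 0 of any size was found for 6 of the 9 (66.7%), against 49.8% of all genes. When the arrays were centred on spike-in RNA, *Hdc* (−0.32) and *Gata2* (−0.43) also lay below 0, so that 8 of the 9 (88.9%) did, against 80.8% of all genes. The median of the 9 differences was −0.52, and that of all genes was 0.00, with quartiles at −0.26 and 0.32. The 9 genes did not move as a block. They ran from −2.67 to 1.41, with the proteases on the lower side, the receptor chains on opposite sides, and *Hdc* and *Gata2* close to 0.

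**Figure D1:**
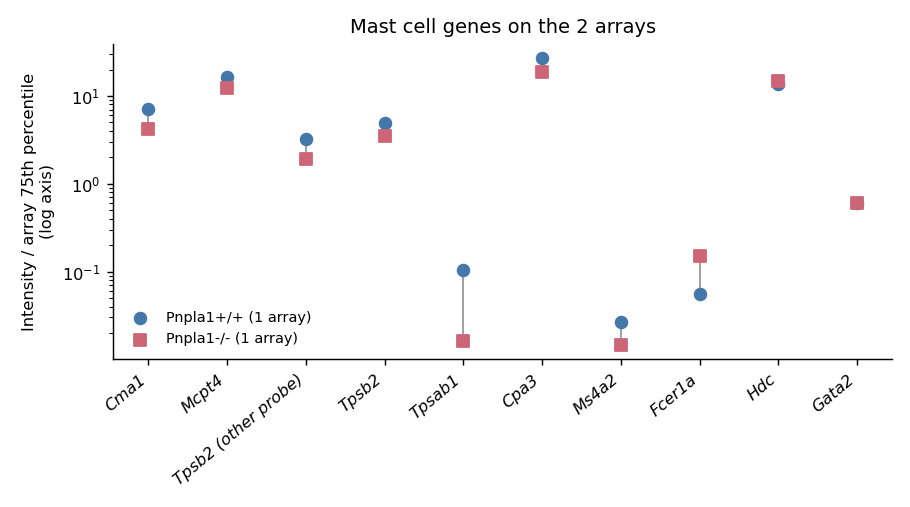
Intensity divided by the 75th percentile of the array (log axis) for each mast cell probe, with a circle for the *Pnpla1*+/+ and a square for the *Pnpla1*-/- array, 1 array each; levels compare between arrays within a probe and not between probes. The squares lie below the circles for all protease probes and *Ms4a2*, above for *Fcer1a*, and on or next to them for *Hdc* and *Gata2*.

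The granule proteases were all lower in *Pnpla1*-/- skin in intensity after scaling, and 4 of the 5 lay within 0.36 of one another. *Cma1*, the alpha-chymase gene of the mouse, whose protein has elastase-like specificity, read 15135 on the control array and 7222 on the knockout array. Its scaled level in the knockout was 58.0% of that in the control, a difference of −0.79, and 5.19% of all genes had a lower difference. In bulk skin, fewer mast cells and less RNA per cell cannot be told apart, here and for every gene below. *Mcpt4*, which encodes the main chymotrypsin-like enzyme of connective tissue mast cells, went from 34617 to 21151, a difference of −0.43. *Cpa3*, the carboxypeptidase that trims peptides after the chymases have cut them, went from 56546 to 32445, a difference of −0.52. These spots were far above their surroundings, and even in the knockout the mean brightness of the *Cma1* spot was 287 times its local background. The differences are larger than the technical SD of 0.08 and smaller than 2-fold, except that *Cma1* reached −1.07 with no scaling and −1.22 with spike-in centring.

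*Tpsb2*, the main tryptase of mouse skin mast cells, was read by 2 probes. The brighter probe went from 10459 in *Pnpla1*+/+ to 5989.6 in *Pnpla1*-/- skin, a difference of −0.52. The probe shown above went from 6768 to 3343, a difference of −0.74. The probes thus gave the same direction and differed by 0.21 from each other, next to a median range of 0.18 between probes of 1 gene over 5111 genes with several measured probes.

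*Tpsab1* stood apart from the other proteases. This gene encodes the tryptase known as mouse mast cell protease 7, whose transcript is known to be spliced aberrantly in C57BL/6 mice. Its intensity dropped from 218 in the control to 28.1 in the knockout, so that the scaled level in the knockout was 15.7% of the control, a difference of −2.67. Only 0.139% of all genes had a lower difference. The knockout spot was dim, with a mean brightness 3.41 times its local background against 10.5 times on the control array, and the lowest intensity called well above background on the *Pnpla1*-/- array was 21.7. The size of the difference depended on the background correction, and it was −1.28 with a normexp correction, which adds an offset of 50 to each spot. It stayed at least 2-fold lower under all 13 alternative settings. The *Tpsab1* probe lies 3.55 Mb from that of *Pnpla1* on chromosome 17, and the *Tpsb2* probe, at a difference of −0.52, lies 3.52 Mb from it.

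The chains of the IgE receptor differed in opposite directions, and the *Ms4a2* spots were dim, under an intensity of 100 on both arrays. *Fcer1a*, the chain that binds IgE, read 118 in the control and 258 in the knockout. Its scaled level was 2.65-fold higher in the knockout, a difference of 1.41, and 96.2% of all genes had a lower difference. It was 0.98, under 2-fold, with spike-in centring. *Ms4a2*, the beta chain that amplifies the signal, went from 56.5 to 25.3, a difference of −0.88. Its spots had a mean brightness of 4.65 times the local background on the control array and 3.13 times on the knockout array. The *Ms4a2* value is larger than the technical SD of 0.23 for dim probes, but with normexp correction it was −0.22. That SD is a median over probes under 100 and was not taken for intensities as low as 25.3. The lowest intensity called well above background on the *Pnpla1*-/- array was 21.7. *Ms4a2* passed 2-fold under 4 of the 13 alternatives and was lowest, at −1.31, with spike-in centring. The difference between the chains, 2.28, rests on 1 spot per gene and array, with those of *Ms4a2* dim, and was 1.31 with normexp correction.

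*Hdc*, which makes histamine from histidine, was bright on both arrays, at 28699.6 in *Pnpla1*+/+ and 25470 in *Pnpla1*-/- skin. Its difference of 0.11 was close to the technical SD, and it fell below 0 under 3 of the 13 alternatives, with no scaling (−0.17), quantile normalization (−0.02) and spike-in centring (−0.32). *Gata2* went from 1263 to 1041, and after scaling the difference was 0.00, with a range from −0.43 to 0.10 over the alternatives. No protease had a difference above −0.43 under the 75th percentile scaling, so that *Hdc* and *Gata2* lay apart from the proteases within the set.

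**Figure D2:**
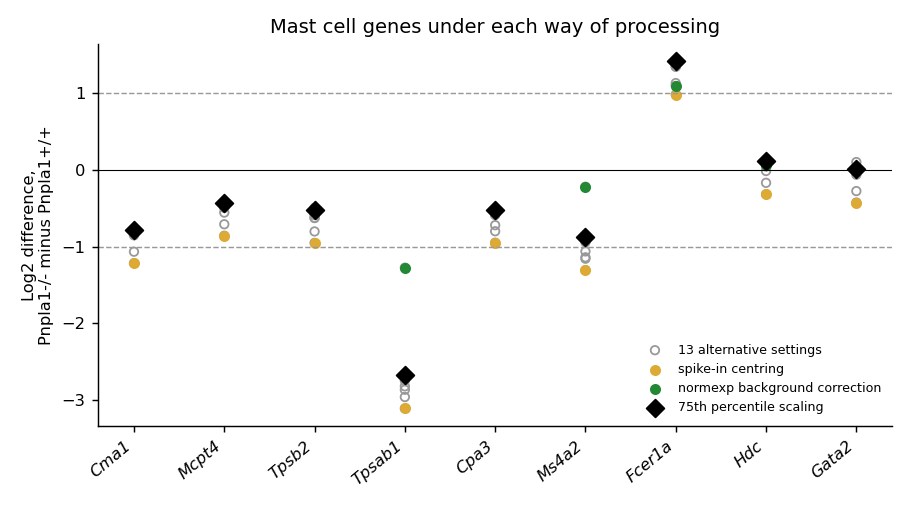
Log2 difference, *Pnpla1*-/- minus *Pnpla1*+/+, of each mast cell gene under 75th percentile scaling (black diamonds) and 13 alternative settings (open circles, with spike-in centring and normexp correction filled); dashed lines mark 2-fold. The proteases and *Ms4a2* stay below 0 and *Fcer1a* above 0 in every setting, while *Hdc* and *Gata2* fall on either side, and *Tpsab1* runs from −3.11 to −1.28.

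Beyond these 9 genes, 54 genes of mast cell biology in 7 groups were examined. Of the 50 with a value, 12 (24%) were at least 2-fold higher in the knockout and 1 (2%) was at least 2-fold lower, beside the 6.70% and 3.04% of all genes given above. The split was 9 higher and 4 lower with no scaling, where 998 of 22338 genes of the array were higher and 1424 lower. With spike-in centring it was 8 higher and 5 lower, where 827 of 22171 genes of the array were higher and 2178 lower. The median of the 50 was 0.21 and 16 of them (32%) lay below 0, against 0.00 and 49.8% for all genes. The 12 higher genes are also expressed by other cells, as given below, so that their count does not describe mast cells alone. The lowest of the 16 were *Mrgprb2* (−1.05), *Rgs13* (−0.81), *Slc18a2* (−0.78), *Cd200r3* (−0.72) and *Tpsg1* (−0.68). With spike-in centring the median of the 50 was −0.22 and 30 (60%) lay below 0, against −0.43 and 80.8% for all genes. *Mcpt10* was not among the probes, and *Mcpt1*, *Il3* and *Il9* were not well above background on either array.

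Among 7 other proteases of mast cells and basophils with a value, 2 were at least 2-fold higher and none lower, with a median of 0.20. The median was −0.09 with no scaling and with quantile normalization, and with spike-in centring it was −0.24 and 1 gene was at least 2-fold lower. *Mcpt8*, the protease that marks mouse basophils, rose from 42.5 in the control to 449 in the knockout. It was 12.8-fold higher after scaling, a difference of 3.68, or 2.52 with normexp correction. *Gzmb*, the granzyme of cytotoxic cells that some mast cells also make, was well above background in the knockout only, with intensities of 15.1 and 81.2, and was at least 4.13-fold higher, a bound of 2.05 on the log2 scale that came to 1.06 with normexp correction. The brightest probe of this group was that of *Tpsg1*, the transmembrane tryptase of mast cells, which had the lowest difference of these 7, from 2608 to 1338 (−0.68).

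**Figure D3:**
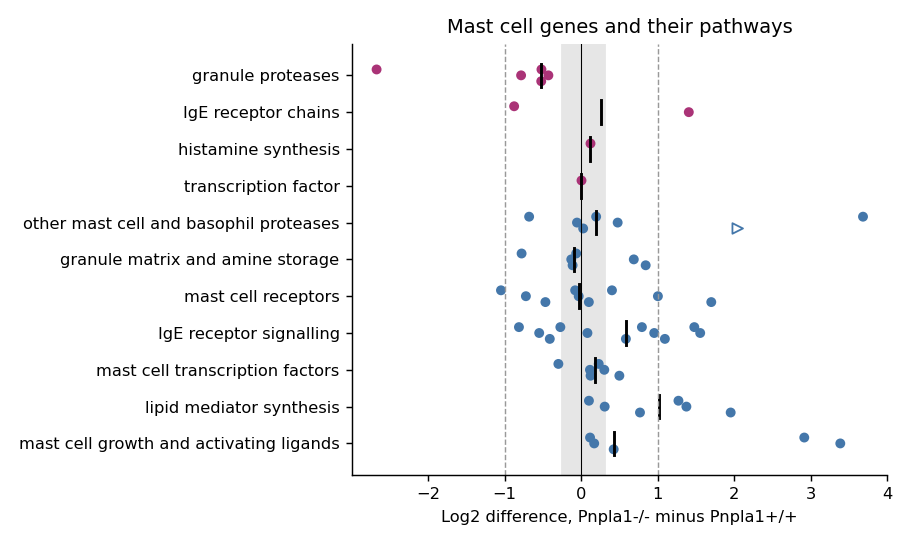
Log2 difference, *Pnpla1*-/- minus *Pnpla1*+/+, of each gene of the mast cell set (purple) and of 7 groups of mast cell biology (blue); bars are medians, triangles are bounds, the grey band spans the middle 50% of all genes and dashed lines mark 2-fold. The proteases of the set lie to the left of the band, while *Mcpt8* (3.68), *Tslp* (3.39) and *Il33* (2.92) lie farthest to the right.

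None of 6 genes of the granule matrix and of amine storage was 2-fold changed, and their median was −0.09, or −0.52 with spike-in centring, where 1 was at least 2-fold lower. *Srgn*, the serglycin core on which granule proteases are held, went from 7570 to 10026, a difference of 0.69. *Slc18a2*, the transporter that loads histamine into granules, had −0.78, and −1.21 with spike-in centring. Of 9 receptors, 2 reached 2-fold on the higher side and 1 on the lower, with a median of −0.03, while with no scaling and with spike-in centring 1 was higher and 2 were lower. *Kit*, the receptor for stem cell factor on which mast cells depend, went from 2652 to 2133, a difference of −0.03. It was 0.05 with cyclic loess and −0.46 with spike-in centring. *Mrgprb2*, the receptor through which basic peptides and many drugs activate mast cells, was 2.07-fold lower, from 538 to 214 (−1.05). It came under 2-fold with cyclic loess and normexp correction, at the least −0.83. *Csf2rb*, the beta chain shared by the IL-3, IL-5 and GM-CSF receptors, was 3.25-fold higher. *Fcer1g*, the gamma chain that the IgE receptor shares with Fc receptors of other leukocytes, went from 8489.9 to 13989.8, just past 2-fold, which it passed under 8 of the 13 alternatives.

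Of 11 genes that act behind the IgE receptor, 3 were at least 2-fold higher, 7 lay above 0 and 4 below 0, with a median of 0.58. With no scaling and with spike-in centring 2 were higher, 1 was lower and 5 lay below 0, and the medians were 0.30 and 0.15. The 4 below 0 were *Rgs13* (−0.81), *Fyn* (−0.55), *Lat2* (−0.41) and *Lat* (−0.27). *Plcg2*, the phospholipase of blood cells, was 2.94-fold higher, *Vav1*, an exchange factor, 2.79-fold and the adaptor *Lcp2*, dim at 29.7 and 52.1, 2.13-fold higher. *Lcp2* was past 2-fold under 6 of the 13 alternatives and had 0.60 with normexp correction. Of 6 lipid mediator genes 3 were at least 2-fold higher and none lay below 0, with a median of 1.02. With no scaling 2 were at least 2-fold higher and 1 lay below 0, and with spike-in centring 1 was higher and 2 lay below 0. *Alox5ap*, the protein that hands arachidonic acid to 5-lipoxygenase, went from 2345 to 7469, a difference of 1.95. *Alox5*, the lipoxygenase itself, and *Hpgds*, the haematopoietic prostaglandin D synthase, differed by 1.27 and 1.37, and came under 2-fold with spike-in centring, at 0.84 and 0.94, *Alox5* also with no scaling. All of these genes are also expressed by other leukocytes.

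None of 6 transcription factor genes was 2-fold changed, and their median of 0.18 turned to −0.11 with no scaling and −0.26 with spike-in centring, with *Mitf*, which drives *Kit* and protease genes in mast cells and also acts in melanocytes, at −0.30 under the 75th percentile scaling. Among 5 ligands with a value, *Kitl*, the stem cell factor, had 0.12, from 689.8 to 615, and it fell below 0 with no scaling and spike-in centring. The ligands past 2-fold were 2 cytokines that injured epithelium is known to release. *Il33* rose from 247 to 1529.9, a difference of 2.92, and *Tslp* from 50.6 to 435, a difference of 3.39, or 2.29 with normexp correction. The receptor for IL-33 on mast cells, *Il1rl1*, had a difference of 0.10, which turned to −0.33 with spike-in centring.

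*Cma1* and *Mcpt4* belong to a cluster of related proteases on chromosome 14, and 20 probes lie from *Cma1* to *Gzmb* over 316 kb of mm9. Of the 13 probes that were well above background on at least 1 array, 7 had a difference below 0 and 6 above 0. This split depends on the scaling. *Mcpt2* (0.03) and *Mcpt9* (0.20) fell to −0.41 and −0.24 with spike-in centring, and *Gm4022*, at 0.09, was smaller than that shift of 0.43. The lower values lay at the *Cma1* end, where *Mcpt-ps1*, a protease pseudogene, and *Cma2*, another chymase gene, had −0.51 each. Next to *Mcpt4*, at −0.43, the basophil gene *Mcpt8* had 3.68 and *Ctsg*, cathepsin G of neutrophils and mast cells, −0.06 (0.04 with cyclic loess). *Gzmc* at the far end had 1.17. These genes are close in sequence, and how much RNA of a neighbour each probe takes up was not tested. On chromosome 17, 9 probes lie from *Prss34* to *Tpsg1* over 74.3 kb. Of these 9 probes 3 were not well above background on either array. *Prss34*, a basophil and mast cell protease, had 0.48, *Prss28* had 0.18, which is smaller than the spike-in shift, and the tryptases *Tpsab1*, *Tpsb2* and *Tpsg1* all lay below 0.

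**Figure D4:**
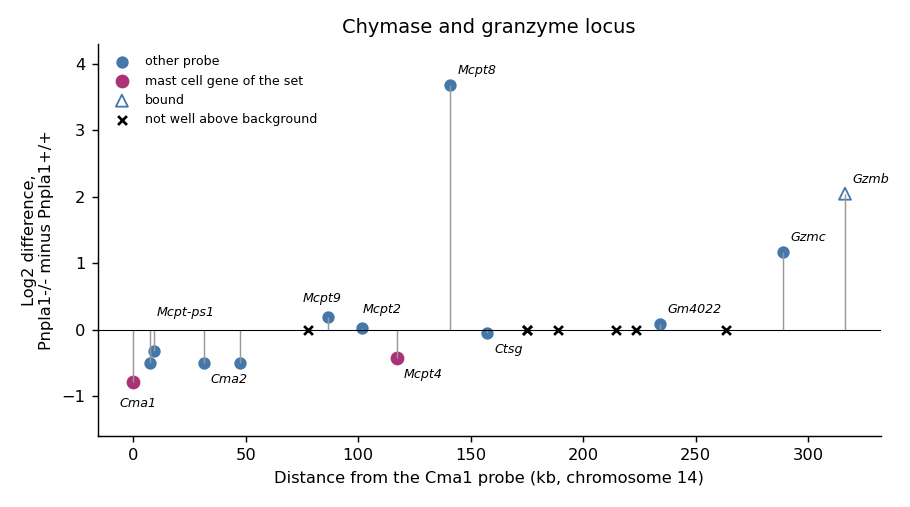
Log2 difference, *Pnpla1*-/- minus *Pnpla1*+/+, of each probe of the protease cluster on chromosome 14 by distance from the *Cma1* probe in kb; purple points are *Cma1* and *Mcpt4*, blue points other probes, the triangle a bound and crosses probes not well above background on either array. Differences below 0 lie at the *Cma1* end, at *Mcpt4* and, near 0, at *Ctsg*, and *Mcpt8* (3.68) stands between *Mcpt4* and *Ctsg*.

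Markers of other cells were set beside these values, since a bulk sample mixes them. The labels call the tissue skin while the design text also speaks of epidermis, and markers of the dermis and below it were well above background, for example all 7 of 7 fibroblast, 6 of 6 adipocyte and 6 of 6 skeletal muscle genes. The fibroblast list had a median of −0.15 and a summed scaled intensity of 352 in the control and 331 in the knockout, with *Col1a2* its brightest gene at −0.17. The adipocyte, skeletal muscle and smooth muscle lists had medians of 0.08, 0.06 and 0.06, the endothelial list had 0.35 and the melanocyte list −0.38. With no scaling the first 3 medians lay below 0, at −0.21, −0.22 and −0.23, and with spike-in centring they were −0.35, −0.37 and −0.37, with −0.08 for the endothelial, −0.58 for the fibroblast and −0.81 for the melanocyte list. Their brightest genes were *Fabp4*, *Myh8*, *Acta2*, *Kdr* and *Dct*, and no gene of these lists was 2-fold changed. The basal keratinocyte list had a median of 0.16 (−0.12 with no scaling and −0.27 with spike-in centring), with 1 of 5 genes, *Krt14*, at least 2-fold higher (1.35, and 0.92 with spike-in centring) and *Krt5* the brightest. The protease median of −0.52 was thus below that of each of these lists.

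All genes of the general leukocyte and macrophage lists lay above 0 under each of the 13 alternatives, as did *Fcer1a*, *Fcer1g* and *Mcpt8*. The general leukocyte list had a median of 1.21 and 3 of 4 genes past 2-fold, all higher, with *Coro1a* its brightest gene and a summed scaled intensity that went from 3.70 in the control to 8.63 in the knockout. Only 1 of the 4 was past 2-fold with no scaling (median 0.93) and with spike-in centring (median 0.78). The macrophage list had 2 of 7 at least 2-fold higher, a median of 0.84 and sums of 14.2 and 24.1, with *Csf1r* the brightest at 0.67. None of the 7 was past 2-fold with no scaling or with spike-in centring, where the median was 0.56 and 0.41. The neutrophil list had 3 of 6 at least 2-fold higher, with *Cxcr2* at least 59.8-fold, *Mpo* 20.4-fold and *Retnlg* 11.2-fold higher. On the log2 scale these were 5.90, 4.35 and 3.48, and normexp correction gave 4.31 for *Cxcr2* and 2.98 for *Mpo*. The other 3 genes, *Ly6g*, *Elane* and *Csf3r*, had 0.42, 0.05 and 0.04, and all 3 lay below 0 with spike-in centring. The median of 1.95 lies in the gap between these groups of genes, and it was 0.42 where the bound of *Cxcr2* was left out. The sum of the list went from 43.5 to 47.1 with the probe named *Csf3r* its brightest, and whether this probe reads *Csf3r* was not checked. The T cell list, with 4 of 5 genes on the array, had no gene called past 2-fold. *Cd3e* was its brightest gene and *Trac* had no probe. *Cd8a*, well above background in the knockout only, was at least 1.67-fold higher. The median of the list was −0.14, or −0.40 where this bound was left out. It was 0.03 with normexp correction, −0.42 with no scaling and −0.57 with spike-in centring.

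Basophils share *Fcer1a* (1.41), *Ms4a2* (−0.88), *Hdc* (0.11) and *Gata2* (0.00) with mast cells. In the basophil and eosinophil list 2 genes lay below 0 and 3 above. Of 5 with a value *Mcpt8* was at least 2-fold higher, and *Epx*, eosinophil peroxidase, was well above background in the control only and at least 2.28-fold lower, a bound of −1.19 on the log2 scale that came to −0.26 with normexp correction. *Prg2*, an eosinophil granule protein, was below this mark on both arrays. *Cd200r3*, a receptor of basophils and mast cells and the brightest of the list, went from 416 to 207, a difference of −0.72, or −1.15 with spike-in centring. Summed over the list, the scaled intensity was 0.332 in the control and 0.516 in the knockout, and without *Mcpt8*, left out after its values were seen, it was 0.312 and 0.256. *Cd200r3*, which mast cells also express, made up 59.5% of the control sum of the whole list, so that the lower sum largely follows this gene. Besides *Mcpt8* and *Cd200r3*, *Prss34* (0.48) and the dim *Siglecf* (0.77) lay above 0 and *Epx* below. The part of basophils, of other leukocytes and of other cells of the skin in the values of *Fcer1a*, *Ms4a2*, *Hdc*, *Gata2* and the genes behind the receptor was not tested.

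**Figure D5:**
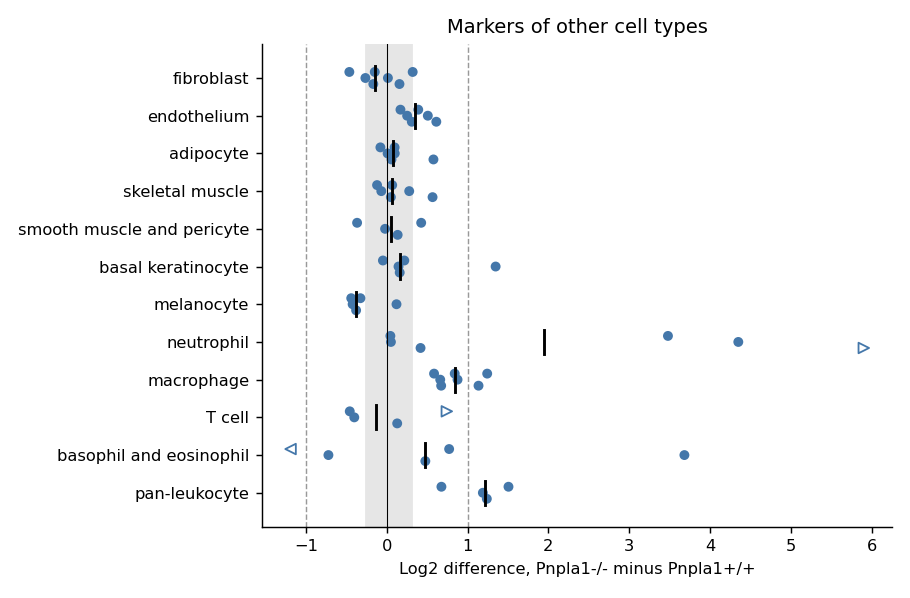
Log2 difference, *Pnpla1*-/- minus *Pnpla1*+/+, of the marker genes of 12 other cell types, with bars for medians, triangles for bounds, a grey band for the middle 50% of all genes and dashed lines at 2-fold. The fibroblast, endothelial, adipocyte, muscle and melanocyte genes lie within 2-fold, *Krt14* (1.35) of the basal keratinocyte list does not, and the neutrophil, macrophage and general leukocyte lists have medians of 1.95 (0.42 without the bound of *Cxcr2*), 0.84 and 1.21.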

How the data were processed

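Arrays were assigned to genotypes from the sample labels. The authors scanned both arrays, which lie on 1 slide and share a scan time, and extracted them with Agilent Feature Extraction 11.5.1.1. Per the file headers, the deposited intensity (processed signal) of each spot is background-subtracted and detrended within the array, and probe positions are on mm9. The authors' deposited value table holds the ratio of that intensity to 1 factor per array. The study's methods name global normalization in GeneSpring GX, with no statistic.

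From the intensities of 43020 spots other than controls (39429 probes), 71.7% well above background in *Pnpla1*+/+ and 73.3% in *Pnpla1*-/- skin and 0 saturated, log2 values minus the log2 of the 75th percentile were computed (Python 3.11.15, pandas 2.3.3, numpy 2.4.6). Outlier-flagged spots (138 and 82) were left out, repeated spots were averaged, and the probe with the highest mean signal stood for its gene. A difference was taken where both arrays were well above background. Where only 1 was, a bound was taken, in which the dim side was put at the array's weakest spot still well above background or at its own signal if that was higher. Symbols were brought up to date through RefSeq (GRCm38.p6), by accession for 27508 probes, by symbol for 3544 and by older symbol for 404, while 8029 kept their name. These counts take in control probes as well and so add up to more than the 39429 probes. The computation was tested on simulated data.

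The mast cell genes, the groups, the marker lists and the settings were chosen with earlier results of these data known. Named are the 9 genes, every gene of the other mast cell groups past 2-fold, *Kit*, *Fcer1g*, *Mitf*, *Srgn*, *Kitl* and *Il33*, and of each marker list the brightest gene and those not above background. *Tpsg1*, *Slc18a2*, *Il1rl1*, *Krt14*, *Cxcr2*, *Mpo*, *Retnlg*, *Epx*, *Siglecf*, *Ly6g*, *Elane*, *Cd8a*, *Rgs13*, *Fyn*, *Lat2*, *Lat*, the genes of the protease clusters and the sex-linked genes were named after their values were seen. Alternatives were run with limma 3.58.1 under R 4.3.3 (quantile, cyclic loess, normexp with an offset of 50) and by other scalings, probe rules, filters and thresholds. Likeness of pattern was not computed, since 2 arrays give 1 difference per gene, and proteins were not compared. The values of 1 marker list are not reported here.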

Additional observations from a re-analysis of the deposited data

How the results depend on the processing

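The number of arrays limits the precision, and none of the values has a replicate. *Cma1*, *Mcpt4*, *Tpsb2*, *Tpsab1*, *Cpa3* and *Ms4a2* stayed below 0 and *Fcer1a* above 0 under all 13 alternative settings. The median of all genes moved by −0.28 with no scaling, by −0.44 with spike-in centring and by 0.10 with no filter on dim probes, so that 73.0% of all genes lay below 0 with no scaling and 80.8% with spike-in centring, and a scaling by 1 factor moves every gene alike. With no scaling 3 of the mast cell genes were at least 2-fold lower, their median was −0.80, and 1424 genes of the array were lower and 998 higher. With spike-in centring 3 were lower and 0 higher (*Fcer1a* at 0.98), their median was −0.95, and 2178 genes were lower and 827 higher. Quantile normalization and cyclic loess each gave 2 lower, with *Ms4a2* at −1.14 and −1.06. Quantile normalization gave 890 lower and 1270 higher genes of the array and cyclic loess gave 754 and 1437, against 681 and 1499. Normexp correction gave 321 lower and 960 higher genes, and no filter on dim probes 1.1e+03 and 3041. At a 1.5-fold threshold 3 mast cell genes were lower, and 2092 genes of the array were lower and 3092 higher. At 3-fold 0 mast cell genes were higher, and 228 genes were lower and 684 higher. *Mcpt8*, whose alternatives were chosen after seeing the data, ran from 2.52 to 3.68. The slide as a block could not be fitted, since both arrays lie on 1 slide. No paired analysis was possible because each genotype has 1 array.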
